A study of Mus musculus with 9 samples.

Results

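The 10 genes described here encode the adaptors, IRAK kinases and TRAF ubiquitin ligases that stand directly below Toll-like receptor 4 (TLR4) in the macrophage response to lipopolysaccharide (LPS). They were taken by mouse symbol, from their known roles: Myd88, Tirap, Irak1, Irak2, Irak3, Irak4 and Traf6 as a MyD88 arm of 7 genes, and Ticam1, Ticam2 and Traf3 as a TRIF arm of 3 genes. The files list 22524 genes, of which 11560 had enough reads to be tested, among them all 10. RNA was sequenced from bone marrow-derived macrophages (BMDMs), primary macrophages grown for 7 days from the bone marrow of C57BL/6 mice. The 9 libraries were 3 of SRF-KO cells with LPS for 6 h, 3 of wild-type cells with LPS for 6 h and 3 of untreated wild-type cells, which the titles name Control. SRF (serum response factor) is known as a regulator of transcription of cytoskeletal and immediate-early genes. The labels name neither the LPS dose nor the cell type and stage at which Srf was deleted. Untreated SRF-KO libraries were not analysed here, and the response of SRF-KO cells to LPS is therefore not measured.

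Lipopolysaccharide bound to TLR4 recruits adaptor proteins through shared TIR domains. At the plasma membrane, TIRAP brings in MyD88, which gathers IRAK4, IRAK1 and IRAK2 into a signalling complex that activates TRAF6 and, through it, NF-kB and MAP kinases. From endosomes, TRAM (encoded by Ticam2) brings in TRIF (encoded by Ticam1), which acts through TRAF3 and the kinase TBK1 on IRF3 and the interferon beta gene. The arms are not separate: TRAF6 also binds TRIF, and TRAF3 also joins MyD88 complexes.

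Total counts per library were between 15321839 and 24912173. Levels are in CPM, the usual unit of read counts per library size, with sizes corrected by TMM (trimmed mean of M-values). Differences were tested with the quasi-likelihood F-test of edgeR, adjusted by Benjamini and Hochberg's method over all 11560 genes. Whether the replicates are different animals, cultures or only preparations is not in the labels, and a p-value here is set by the spread between libraries, which may be technical. Srf was at 1.05 ± 0.438 CPM in SRF-KO with LPS, against 57.6 ± 2.17 CPM in LPS-treated wild type and 44.3 ± 4.54 CPM in untreated wild type (SD, n = 3 each). The sum of 4 Y-linked genes was between 0.0387 and 0.135 CPM in the SRF-KO libraries, against 137 to 146 CPM in LPS-treated wild type and 115 to 133 CPM in untreated wild type. The sex of the animals and the genotype can therefore not be told apart. All 10 macrophage markers were tested. They summed to between 24667 and 24924 CPM in SRF-KO with LPS and 24061 and 24547 CPM in LPS-treated wild type. In untreated wild type the sum was between 17201 and 17812 CPM. Lyz2 was the largest part, at 12296 ± 112 CPM in SRF-KO with LPS and 8925 ± 208 CPM in LPS-treated wild type. Cd14 was at 5356 ± 55.9 and 3191 ± 18.0 CPM in these groups. Of the 10, Cd14 (log2 fold change 0.75), Lyz2 (0.46) and Csf1r (0.36) were higher in SRF-KO with LPS than in LPS-treated wild type, and the other 7 were lower, with values between -0.45 for Itgam and -4.46 for Fcgr1. Markers of neutrophils (7 genes) summed to 18.7 to 19.96 CPM in SRF-KO with LPS, 6.27 to 7.26 CPM in LPS-treated wild type and 1.87 to 2.32 CPM in untreated wild type. S100a8 made up most of the sum with LPS, at 16.1 ± 0.332 CPM in SRF-KO with LPS and 5.11 ± 0.844 CPM in LPS-treated wild type. Of the 3 neutrophil markers tested, S100a8 (log2 fold change 1.66) and Camp (1.23) were higher in SRF-KO with LPS than in LPS-treated wild type. S100a9 did not pass between these groups (-0.40). Camp was at 2.60 ± 0.467 CPM in SRF-KO with LPS and 1.08 ± 0.101 CPM in LPS-treated wild type. Ly6g, Mpo and Elane had 0 counts in both groups. Stromal and endothelial markers (6 genes) summed to 28.4 to 30.7 CPM in SRF-KO with LPS, 20.5 to 26.7 CPM in LPS-treated wild type and 1.87 to 2.17 CPM in untreated wild type. Pdgfrb made up most of the sum with LPS, at 27.4 ± 1.26 CPM in SRF-KO with LPS and 14.8 ± 2.29 CPM in LPS-treated wild type, whereas Pecam1 (-1.78) and Cdh5 (-2.23) were lower in SRF-KO with LPS and Col1a1 had 0 counts in every library. Markers of B cells, of T and NK cells, of dendritic cells and of erythroid and mast cells each summed to at most 5.41 CPM in any library. The part of these differences in the results was not tested.

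All 10 genes passed an adjusted p below 0.05 for LPS in wild-type BMDMs, 8 upwards and 2 downwards. With library totals in place of TMM it was 7 and 3, as Irak4 turned downwards. Irak4 also did not pass in 3 of the fits that left out 1 library. The brake kinase Irak3 had the largest fold change of the 10, followed by Irak2 and Myd88, while Irak1 and Traf3 were lower with LPS. Across all tested genes 81.7% passed in this comparison, 40.8% higher and 40.8% lower, and 82.1% had no overlap between the groups, against 10 of the 10 genes here. The median log2 fold change was 0.92 over the 10 genes and -0.02 over all tested genes. Between the LPS-treated groups, 2 of the 10 genes were higher in SRF-KO, 5 were lower and 3 did not pass, and 7 had no overlap. With library totals 5 were higher and 5 lower, as Tirap turned direction and it, Irak3 and Traf6 passed as higher. Of all tested genes 77.0% passed in that comparison, 39.1% higher and 37.9% lower, and 78.0% had no overlap. The median log2 fold change of SRF-KO with LPS over LPS-treated wild type was -0.29 for the 10 genes and 0.01 for all tested genes. Library totals moved the median of all tested genes by 0.36 in this comparison and by -0.55 for LPS in wild type. With them, more of all tested genes passed as higher than as lower between the LPS-treated groups, and fewer did for LPS in wild type. Both comparisons use the same wild-type LPS libraries. In bulk RNA, fewer cells with a transcript and less of it per cell cannot be told apart.

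**Figure D1:**
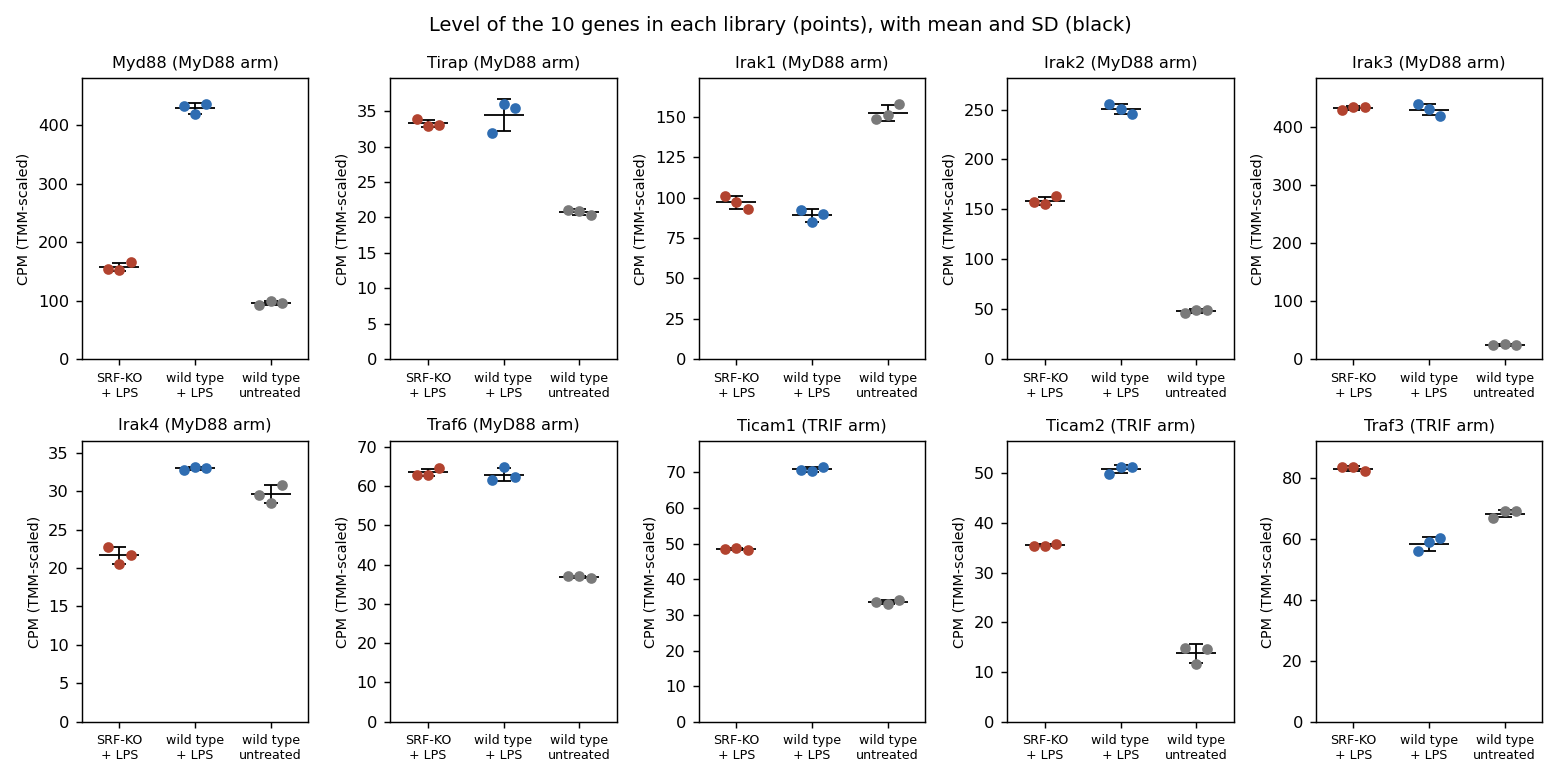
Level of each of the 10 genes (y axis, TMM-scaled CPM, from 0) in SRF-KO with LPS, LPS-treated wild type and untreated wild type (x axis); points are libraries and black lines the mean and SD of 3. Myd88, Irak2, Ticam1 and Ticam2 take a middle level in SRF-KO with LPS, whereas Tirap, Irak3 and Traf6 lie over the points of LPS-treated wild type.

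Myd88, the adaptor shared by nearly all Toll-like receptors (ENSMUSG00000032508, chromosome 9, 119335934 to 119341411, minus strand, GRCm38), had the largest fall of the 10 genes in SRF-KO. It was at 154, 153 and 166 CPM in SRF-KO with LPS, at 433, 419 and 437 CPM in LPS-treated wild type and at 93.3, 99.4 and 96.2 CPM in untreated wild type. The groups did not overlap, and SRF-KO with LPS lay nearer to the untreated than to the LPS-treated wild type. LPS raised Myd88 in wild type (log2 fold change 2.16, SE 0.0415, adjusted p = 4.15e-34). It was lower in SRF-KO with LPS than in LPS-treated wild type, with a log2 fold change of -1.45 (SE 0.0397, adjusted p = 8.59e-29). The read counts behind these levels were 3423, 3958 and 2923 in SRF-KO with LPS, 5369, 6063 and 6755 in LPS-treated wild type and 1933, 2075 and 1802 in untreated wild type.

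The promoter of Myd88 is shown because no other gene of the 10 fell as far in SRF-KO with LPS. RefSeq promoter windows (GRCm38.p6, 250 bases before to 50 after a start site) were found for 9 of the 10 genes, with 12 windows in all. They were searched on both strands for 5 motifs, and the bases before the start are printed 5′ to 3′ on the gene's strand. Capitals mark the matches. In Myd88 (chr9:119340019-119340268, minus strand) these are a match to the GAS motif of STAT factors, TTCNNNGAA, first base 46 before the start, and a match to the interferon-stimulated response element (ISRE), TTTCNNTTTC, on the opposite strand from 40 before the start, which overlaps the GAS match.
Myd88: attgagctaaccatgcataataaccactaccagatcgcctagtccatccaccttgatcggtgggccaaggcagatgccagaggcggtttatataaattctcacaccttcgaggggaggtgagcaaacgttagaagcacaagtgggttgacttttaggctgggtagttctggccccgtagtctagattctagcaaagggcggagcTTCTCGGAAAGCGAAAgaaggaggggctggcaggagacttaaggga
Of 32851 promoter windows of the same length, 3.44% hold the ISRE letters and 8.3% the GAS letters. Among the 9 genes with a window, only that of Myd88 held either. No window of these genes held the AP-1 letters TGANTCA, found in 7.81% of all windows, or the CArG box to which SRF is known to bind, found in 1.63%. A match is a description of the letters in this window.

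Tirap, the membrane adaptor that brings MyD88 to TLR4 (ENSMUSG00000032041, chromosome 9, 35184551 to 35200291, minus strand), did not differ detectably between the LPS-treated groups. Its level was 33.9, 32.9 and 33.1 CPM in SRF-KO with LPS, 31.9, 36.0 and 35.4 CPM in LPS-treated wild type and 21.1, 20.9 and 20.3 CPM in untreated wild type. The LPS-treated groups overlapped and lay above the untreated libraries. The difference between SRF-KO and LPS-treated wild type was -0.05 on the log2 scale (95% interval -0.17 to 0.07, adjusted p = 0.427), which turns to 0.30 (adjusted p = 3.28e-05) with library totals in place of TMM. LPS raised Tirap in wild type (log2 fold change 0.73, SE 0.0661, adjusted p = 1.01e-12).

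Ticam1, which encodes TRIF (ENSMUSG00000047123, chromosome 17, 56269319 to 56276786, minus strand), had an intermediate level in SRF-KO. It was at 48.4, 48.8 and 48.4 CPM in SRF-KO with LPS, 70.6, 70.4 and 71.6 CPM in LPS-treated wild type and 33.6, 33.1 and 34.2 CPM in untreated wild type. The replicates of each group were close together and the groups did not overlap. Its log2 fold change was 1.08 for LPS in wild type (SE 0.0517, adjusted p = 5.68e-21) and -0.55 for SRF-KO with LPS over LPS-treated wild type (SE 0.0491, adjusted p = 1.06e-12).

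Ticam2, which encodes TRAM, the bridging adaptor between TLR4 and TRIF (ENSMUSG00000056130, chromosome 18, 46557291 to 46574533, minus strand), had the same order of groups. Its level was 35.4, 35.5 and 35.8 CPM in SRF-KO with LPS, 49.9, 51.4 and 51.3 CPM in LPS-treated wild type and 14.9, 11.6 and 14.7 CPM in untreated wild type. No libraries of different groups overlapped. The log2 fold change was 1.89 for LPS in wild type (SE 0.0717, adjusted p = 2.60e-24) and -0.52 for SRF-KO with LPS over LPS-treated wild type (SE 0.0617, adjusted p = 1.48e-09).

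**Figure D2:**
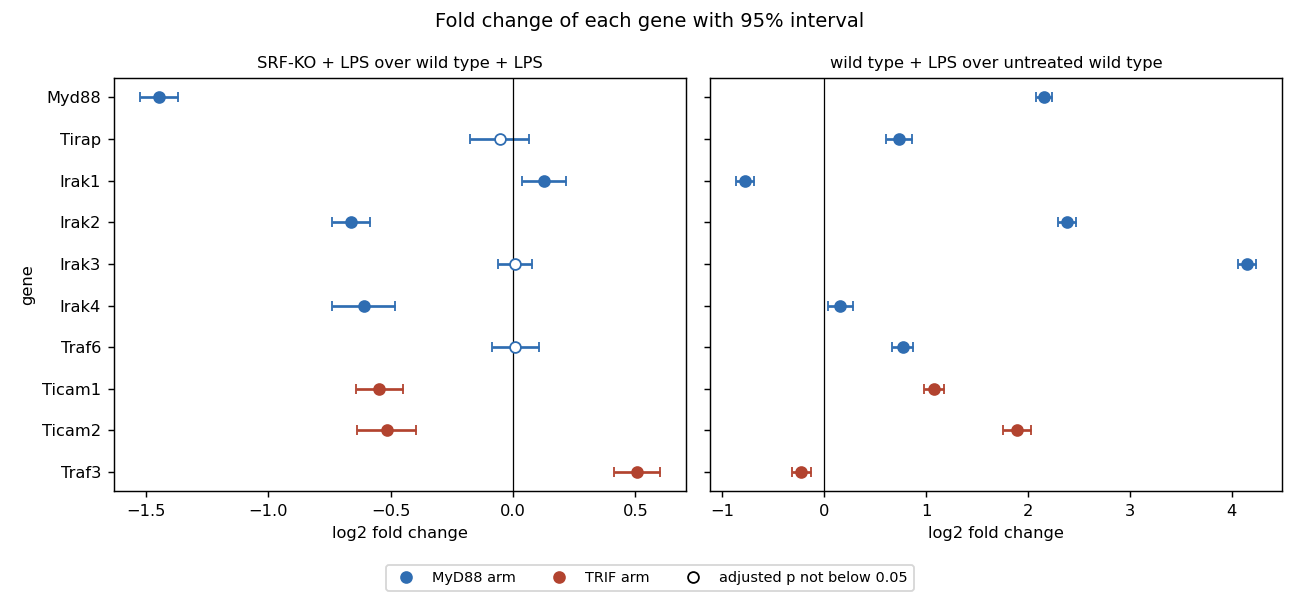
Log2 fold change of each gene (x axis) with its 95% interval for SRF-KO with LPS over LPS-treated wild type (left) and LPS-treated wild type over untreated wild type (right); filled points passed an adjusted p below 0.05, blue is the MyD88 arm and red the TRIF arm. Myd88 lies lowest at left with -1.45 and Traf3 highest with 0.51, while Irak3 lies highest at right with 4.15.

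Of the IRAK kinases, Irak1 is the family member that MyD88 complexes activate and then mark for degradation (ENSMUSG00000031392, chromosome X, 74013914 to 74023918, minus strand). Its level was 101, 97.4 and 92.8 CPM in SRF-KO with LPS, 92.5, 84.8 and 89.9 CPM in LPS-treated wild type and 149, 151 and 158 CPM in untreated wild type. LPS lowered it in wild type, with a log2 fold change of -0.78 (SE 0.0451, adjusted p = 2.24e-18). The LPS-treated groups did not overlap but lay close to each other, with a log2 fold change of 0.13 in SRF-KO over wild type (SE 0.0463, adjusted p = 0.0136). That difference no longer passed without replicate 2 of LPS-treated wild type (0.09, adjusted p = 0.102) or without replicate 1 of SRF-KO with LPS (0.10, adjusted p = 0.0785). Irak1 is X-linked, and the 358 tested X-linked genes had a median log2 fold change of 0.05 in that comparison, against 0.01 for 11151 autosomal genes.

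Irak2, the kinase known for sustaining NF-kB signalling late in the response (ENSMUSG00000060477, chromosome 6, 113638467 to 113695026, plus strand), was induced and lower in SRF-KO. It was at 157, 155 and 163 CPM in SRF-KO with LPS, 256, 250.4 and 246 CPM in LPS-treated wild type and 46.3, 48.8 and 49.2 CPM in untreated wild type. The SRF-KO libraries lay between the wild-type groups without overlap. The log2 fold change was 2.38 for LPS in wild type (SE 0.0435, adjusted p = 7.56e-35) and -0.66 for SRF-KO with LPS over LPS-treated wild type (SE 0.0387, adjusted p = 3.81e-18).

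Irak3 encodes IRAK-M, a family member known as a brake on Toll-like receptor signalling (ENSMUSG00000020227, chromosome 10, 120141648 to 120202130, minus strand). It was at 430.1, 435 and 435 CPM in SRF-KO with LPS, 441, 432 and 421 CPM in LPS-treated wild type and 23.4, 25.3 and 24.1 CPM in untreated wild type. The LPS-treated groups overlapped far above the untreated libraries. LPS raised Irak3 in wild type (log2 fold change 4.15, SE 0.0469, adjusted p = 1.29e-41). The difference between SRF-KO and LPS-treated wild type was 0.01 (95% interval -0.06 to 0.08, adjusted p = 0.841), or 0.36 (adjusted p = 1.07e-11) with library totals in place of TMM.

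Irak4, the kinase that starts phosphorylation in the MyD88 complex (ENSMUSG00000059883, chromosome 15, 94543643 to 94581815, plus strand), was lowest in SRF-KO. Its level was 22.7, 20.5 and 21.7 CPM in SRF-KO with LPS, 32.7, 33.2 and 33.0 CPM in LPS-treated wild type and 29.4, 28.5 and 30.9 CPM in untreated wild type. Every SRF-KO library lay below every wild-type library. The log2 fold change was -0.61 for SRF-KO with LPS over LPS-treated wild type (SE 0.0658, adjusted p = 1.24e-10). The LPS difference in wild type was small, 0.16 on the log2 scale (SE 0.0636, adjusted p = 0.0234), and did not hold across settings. It did not pass without replicate 2 of untreated wild type (0.13, adjusted p = 0.102) or without replicate 2 or 3 of LPS-treated wild type (adjusted p = 0.0547 and adjusted p = 0.0534), and it was -0.39 (adjusted p = 5.94e-07) with library totals.

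Per length of exon, the makeup of the IRAK mRNA differed between the groups. Irak1 held 11.5 ± 0.515% of the IRAK reads per length in SRF-KO with LPS, 9.47 ± 0.368% in LPS-treated wild type and 58.0 ± 0.437% in untreated wild type (SD, n = 3 each). Irak3 held 66.0 ± 0.426% in SRF-KO with LPS, 58.8 ± 0.317% in LPS-treated wild type and 11.8 ± 0.484% in untreated wild type. The share of Irak2 was 20.1 ± 0.453% in SRF-KO with LPS, 28.5 ± 0.0679% in LPS-treated wild type and 19.6 ± 0.285% in untreated wild type. The untreated macrophage thus held mostly Irak1 mRNA per length, and both LPS-treated groups held mostly Irak3 mRNA. Irak4 made up the remaining 2.41 ± 0.117% in SRF-KO with LPS, 3.29 ± 0.0853% in LPS-treated wild type and 10.6 ± 0.333% in untreated wild type.

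**Figure D3:**
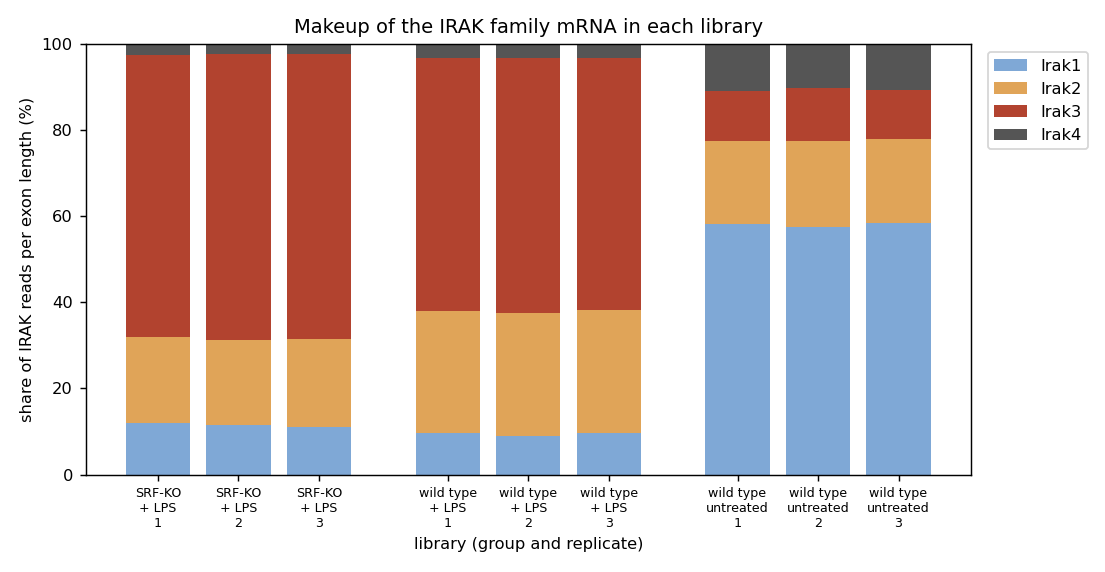
Share of each IRAK gene in the IRAK reads per exon length (y axis, %) in each of the 9 libraries (x axis), stacked to 100. Irak3 fills most of each bar with LPS, 66.0% on average in SRF-KO and 58.8% in wild type, and Irak1 most of each untreated bar, 58.0% on average.

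Traf6, the ubiquitin ligase that carries the signal from IRAK kinases to TAK1 (ENSMUSG00000027164, chromosome 2, 101678429 to 101701669, plus strand), was at 62.9, 62.8 and 64.5 CPM in SRF-KO with LPS, 61.6, 64.9 and 62.3 CPM in LPS-treated wild type and 37.1, 37.0 and 36.7 CPM in untreated wild type. The LPS-treated groups overlapped above the untreated one. LPS raised Traf6 in wild type (log2 fold change 0.77, SE 0.0521, adjusted p = 2.66e-16). The difference between SRF-KO and LPS-treated wild type was 0.01 (95% interval -0.09 to 0.11, adjusted p = 0.857), or 0.37 (adjusted p = 1.59e-08) with library totals in place of TMM.

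Traf3, the ligase needed for TBK1 activation below TRIF (ENSMUSG00000021277, chromosome 12, 111166370 to 111267153, plus strand), ran against the rest of its arm. It was at 83.7, 83.5 and 82.2 CPM in SRF-KO with LPS, 55.9, 59.0 and 60.3 CPM in LPS-treated wild type and 67.0, 69.0 and 69.0 CPM in untreated wild type. The SRF-KO libraries were the highest and no groups overlapped. The log2 fold change was -0.22 for LPS in wild type (SE 0.0490, adjusted p = 8.45e-05) and 0.51 for SRF-KO with LPS over LPS-treated wild type (SE 0.0479, adjusted p = 4.24e-12).

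Irak1 and Traf3, the genes of the 10 that were lower with LPS in wild type, were also those whose promoter windows held a match to the kappa B consensus, found in 8.46% of all windows. The matches are shown in capitals within the 250 bases before the start, for Irak1 at chrX:74023922-74024171 on the minus strand, where the match reads on both strands, and for Traf3 at chr12:111166120-111166369 on the plus strand. The first base of the match lies 18 before the start in Irak1 and 10 before it in Traf3.
Irak1: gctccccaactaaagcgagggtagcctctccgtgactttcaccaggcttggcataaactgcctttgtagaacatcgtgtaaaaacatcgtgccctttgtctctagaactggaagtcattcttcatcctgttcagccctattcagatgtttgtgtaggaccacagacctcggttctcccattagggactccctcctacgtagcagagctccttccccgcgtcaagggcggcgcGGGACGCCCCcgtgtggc
Traf3: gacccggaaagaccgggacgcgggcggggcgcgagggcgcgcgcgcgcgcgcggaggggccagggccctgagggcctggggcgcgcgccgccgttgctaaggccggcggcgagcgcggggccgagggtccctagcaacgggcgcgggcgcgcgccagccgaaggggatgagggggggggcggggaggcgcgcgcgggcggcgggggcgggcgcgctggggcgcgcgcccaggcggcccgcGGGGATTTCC
With 2 genes in question, nothing about NF-kB can be read from these letters, and no binding was measured in these libraries.

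Compared per length of merged exons, Myd88 was the most abundant of the 10 mRNAs in LPS-treated and in untreated wild type. In SRF-KO with LPS it was Irak3. In SRF-KO with LPS the order began with Irak3 at 117.9 CPM per kb, Myd88 at 61.2 and Irak2 at 35.9 CPM per kb, and ended with Irak4 at 4.31 CPM per kb. In LPS-treated wild type it began with Myd88 at 166.7, Irak3 at 117.2 and Irak2 at 56.8 CPM per kb, and ended with Tirap at 6.99 and Irak4 at 6.56 CPM per kb, which overlapped. Traf6 at 7.98 and Traf3 at 7.95 CPM per kb overlapped there too. In untreated wild type it began with Myd88 at 37.4 and Irak1 at 32.4 CPM per kb and ended with Ticam2 at 2.37 CPM per kb. Ticam1 at 11.2 and Irak2 at 10.9 CPM per kb overlapped in that group. All other neighbours in the 3 orders had ranges that did not overlap. Of the reads per length of the 4 adaptors, Myd88 held 67.8 ± 0.979% in SRF-KO with LPS, 80.9 ± 0.449% in LPS-treated wild type and 67.7 ± 1.20% in untreated wild type, while Ticam1 held 18.0 ± 0.576% in SRF-KO with LPS, 11.5 ± 0.115% in LPS-treated wild type and 20.4 ± 0.490% in untreated wild type (SD, n = 3 each).

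Ratios of counts within a library, which do not depend on the scaling between libraries, set each TRIF-arm gene against its MyD88-arm counterpart. The ratio of Ticam1 to Myd88 counts was 0.314, 0.318 and 0.292 in SRF-KO with LPS, 0.163, 0.168 and 0.164 in LPS-treated wild type and 0.360, 0.333 and 0.355 in untreated wild type. It was thus low in LPS-treated wild type, and SRF-KO with LPS lay just below the untreated libraries. The ratio of the bridging adaptors, Ticam2 to Tirap, was 1.07 ± 0.0211 in SRF-KO with LPS, 1.48 ± 0.0734 in LPS-treated wild type and 0.662 ± 0.0939 in untreated wild type (SD, n = 3 each). The ratio of Traf3 to Traf6 was 1.31 ± 0.0325 in SRF-KO with LPS, 0.929 ± 0.0340 in LPS-treated wild type and 1.85 ± 0.0406 in untreated wild type. The 3 pairs of counterparts did not move in 1 direction with LPS: the ratio was lower for Ticam1 to Myd88 and for Traf3 to Traf6, and higher for Ticam2 to Tirap.

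Within the IRAK family, the ratio of Irak2 to Irak1 was 1.64 ± 0.107 in SRF-KO with LPS, 2.82 ± 0.118 in LPS-treated wild type and 0.315 ± 0.00674 in untreated wild type. That of Irak3 to Irak4 was 20.1 ± 1.11 in SRF-KO with LPS, 13.1 ± 0.363 in LPS-treated wild type and 0.822 ± 0.0586 in untreated wild type. The groups did not overlap in any of the 15 comparisons of these 5 ratios. No share for ratios of other gene pairs was computed. Of all tested genes taken singly, 82.1% had no overlap for LPS in wild type and 78.0% between the LPS-treated groups. It was 79.5% for SRF-KO with LPS over untreated wild type. Each of the 15 comparisons of ratios had a two-sided exact permutation p = 0.1, the smallest that 3 against 3 libraries allow. It was also 0.1 after Benjamini-Hochberg adjustment over the 15, so none could pass.

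**Figure D4:**
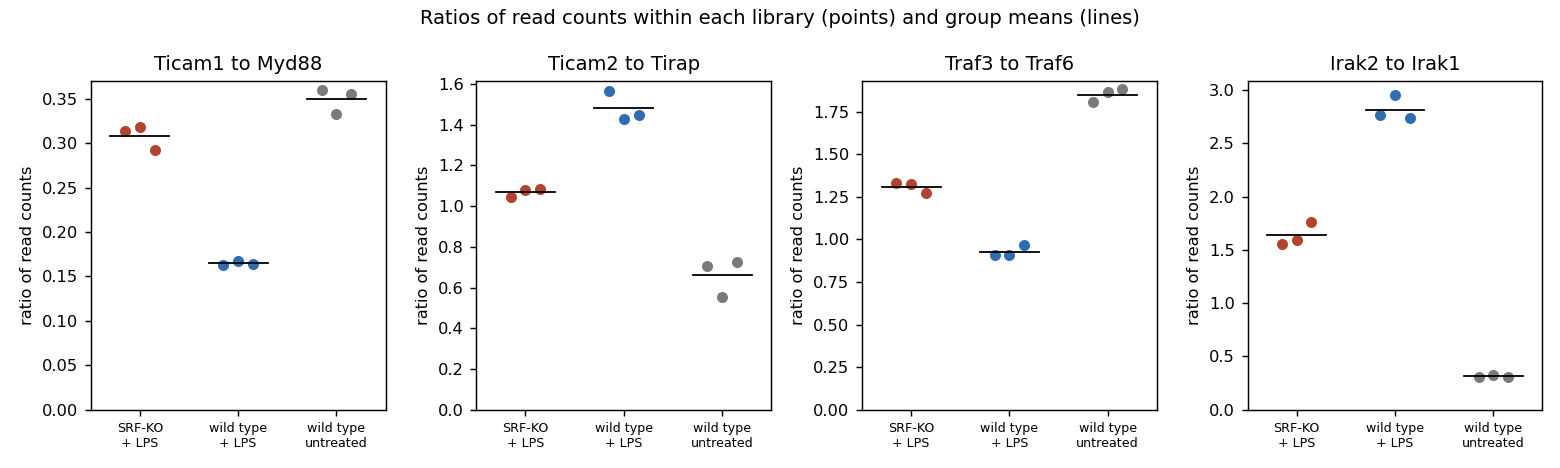
Ratio of read counts within a library (y axis, from 0) for 4 pairs of genes in SRF-KO with LPS, LPS-treated wild type and untreated wild type (x axis); points are libraries and lines the mean of 3. SRF-KO with LPS lies between the wild-type groups in each panel. Not drawn is the ratio of Irak3 to Irak4, where SRF-KO with LPS lay above both wild-type groups. Its means were 20.1 in SRF-KO with LPS, 13.1 in LPS-treated wild type and 0.822 in untreated wild type.

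Over whole arms, LPS in wild type raised 6 and lowered 1 of the 7 MyD88-arm genes (median log2 fold change 0.77), and raised 2 and lowered 1 of the 3 TRIF-arm genes (median 1.08), though Irak4 is lower with library totals. Of all tested genes 40.8% were higher and 40.8% lower. Between SRF-KO and LPS-treated wild type, 1 MyD88-arm gene was higher, 3 were lower and 3 did not pass (median -0.05), while 1 TRIF-arm gene was higher and 2 were lower (median -0.52). Of all tested genes 39.1% were higher and 37.9% lower in that comparison. With library totals Tirap, Irak3 and Traf6 passed as higher too. The median and the mean order the arms differently. For LPS in wild type the mean log2 fold change was 0.91 in the TRIF arm and 1.37 in the MyD88 arm, and for SRF-KO over LPS-treated wild type it was -0.19 in the TRIF arm and -0.38 in the MyD88 arm. The mean log2 CPM of the TRIF arm minus that of the MyD88 arm was -0.79, -0.75 and -0.80 in SRF-KO with LPS, -1.001, -0.97 and -0.95 in LPS-treated wild type and -0.47, -0.61 and -0.49 in untreated wild type. The groups do not overlap in this difference, but it rests on few genes. How often other sets of genes separate the groups in this way was not computed. The TRIF-arm mean fold change minus the MyD88-arm one was -0.45 for LPS in wild type and -0.81 without genes of the X and Y chromosomes, which leaves out Irak1.

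Set against untreated wild type, SRF-KO with LPS had 8 of the 10 genes higher and 2 lower, all 10 without overlap, where 79.5% of all tested genes passed, 39.4% higher and 40.1% lower, and 79.5% had no overlap. The lower genes were Irak1 with a log2 fold change of -0.65 (SE 0.0429, adjusted p = 1.33e-16) and Irak4 with -0.45 (SE 0.0634, adjusted p = 4.44e-08). The others were led by Irak3 with 4.16 (SE 0.0466, adjusted p = 9.78e-42), Irak2 with 1.72 (SE 0.0434, adjusted p = 4.34e-30) and Ticam2 with 1.37 (SE 0.0715, adjusted p = 8.67e-20). Myd88 stood at 0.71 (SE 0.0419, adjusted p = 4.48e-18) in SRF-KO with LPS over untreated wild type. Traf3 stood at 0.28 (SE 0.0451, adjusted p = 5.90e-07), which did not pass with library totals (0.09, adjusted p = 0.0662). Genotype and LPS differ together in this comparison and cannot be told apart.

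Around the 10 genes, 9 lists held 91 genes of the same pathway, of which 87 were tested. Uev1a is not analysed here. LPS raised 69 and lowered 14 of the 87 in wild type, where 40.8% of all tested genes were higher and 40.8% lower. With library totals it raised 55 and lowered 25, where 2428 of all 11560 tested genes were higher and 7835 lower. In SRF-KO with LPS against LPS-treated wild type, 19 were higher, 55 lower and 13 did not pass, with a median log2 fold change of -0.46, where 39.1% of all tested genes were higher and 37.9% lower. With library totals the split was 34 higher and 42 lower in the lists, and 7059 higher and 2434 lower among all tested genes.

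At the receptor, 2 of 5 genes were higher and 3 lower in SRF-KO with LPS than in LPS-treated wild type. For this and the lists below, 39.1% of all tested genes were higher and 37.9% lower. Higher were Tlr4 and Cd14, and lower were Ly86, Cd180 (log2 fold change -2.04) and Ly96 (-0.81). Tlr4 itself was at 59.2, 60.7 and 53.9 CPM in SRF-KO with LPS, 39.2, 44.5 and 38.4 CPM in LPS-treated wild type and 90.0, 77.8 and 73.2 CPM in untreated wild type. Its log2 fold change was 0.51 for SRF-KO over LPS-treated wild type (adjusted p = 1.32e-08). Cd14, the co-receptor that hands LPS to TLR4, was at 5356 ± 55.9 CPM in SRF-KO with LPS and 3191 ± 18.0 CPM in LPS-treated wild type (log2 fold change 0.75). Ly86, which encodes MD-1, the partner of CD180, was at 3.51 ± 0.606 CPM in SRF-KO with LPS and 156 ± 2.99 CPM in LPS-treated wild type (log2 fold change -5.45). Of 6 other TIR and bridging adaptors, 2 were higher, 2 lower and 2 did not pass. Pik3ap1, which encodes the adaptor BCAP that links Toll-like receptors to PI3 kinase, had a log2 fold change of -1.71.

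Of 12 Pellino, linear-ubiquitin and K63-ubiquitin genes acting beside IRAK and TRAF6, 2 were higher and 10 lower in SRF-KO with LPS than in LPS-treated wild type. Peli1, a ubiquitin ligase that binds IRAK proteins, had a log2 fold change of -0.89, Rnf31, the catalytic subunit of the linear ubiquitin ligase, one of -1.53, and Peli2 one of 2.76. Of 10 TAK1 and IKK genes, 4 were higher, 3 lower and 3 did not pass. Ikbkg, which encodes the IKK scaffold NEMO, was higher at 0.73, and Map3k8, the kinase that activates MEK below IKK, was lower at -1.81. Of 12 TRIF effector genes, 1 was higher, 9 were lower and 2 did not pass. Irf7, an interferon-inducible transcription factor, was at 332 ± 17.6 CPM in SRF-KO with LPS and 2979.7 ± 118 CPM in LPS-treated wild type. Ikbke, a kinase close to TBK1, was at 267 ± 9.16 CPM in SRF-KO with LPS and 779.6 ± 32.7 CPM in LPS-treated wild type. Of 4 other TRAF genes, Traf1 (-1.24) and Traf2 (-1.18) were lower, Traf5 (0.77) was higher and 1 did not pass. Of 18 deubiquitinases and other brakes, 1 was higher, 13 were lower and 4 did not pass, with Tnip3, an A20-binding protein, at -2.66 and Usp25 at -1.35.

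Among 10 genes that textbooks link to the MyD88 arm, 6 were higher, 3 lower and 1 did not pass in SRF-KO with LPS against LPS-treated wild type. Cxcl1, a neutrophil chemokine, was at 616 ± 21.3 CPM in SRF-KO with LPS and 19.9 ± 1.11 CPM in LPS-treated wild type. Il6 was at 449 ± 26.8 CPM in SRF-KO with LPS and 88.8 ± 5.78 CPM in LPS-treated wild type, whereas Tnf had a log2 fold change of 0.07 that did not pass (adjusted p = 0.102). Nfkbiz, an inhibitor-like cofactor of NF-kB, was lower at -0.91. All of 10 genes linked to the TRIF arm were lower, with a median log2 fold change of -2.56. Over all tested genes 39.1% were higher and 37.9% lower in this comparison. Ifnb1, of the TRIF-linked list, had only 16 reads summed over SRF-KO with LPS and 35 over LPS-treated wild type. Cxcl10, an interferon-inducible chemokine, was at 476 ± 23.4 CPM in SRF-KO with LPS and 3205 ± 97.2 CPM in LPS-treated wild type, and Mx1, an antiviral GTPase, at 78.7 ± 3.86 CPM in SRF-KO with LPS and 1903 ± 37.6 CPM in LPS-treated wild type. These lists were chosen with earlier results of these data known, and Myd88 and Ticam1 themselves were both lower in SRF-KO with LPS.

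**Figure D5:**
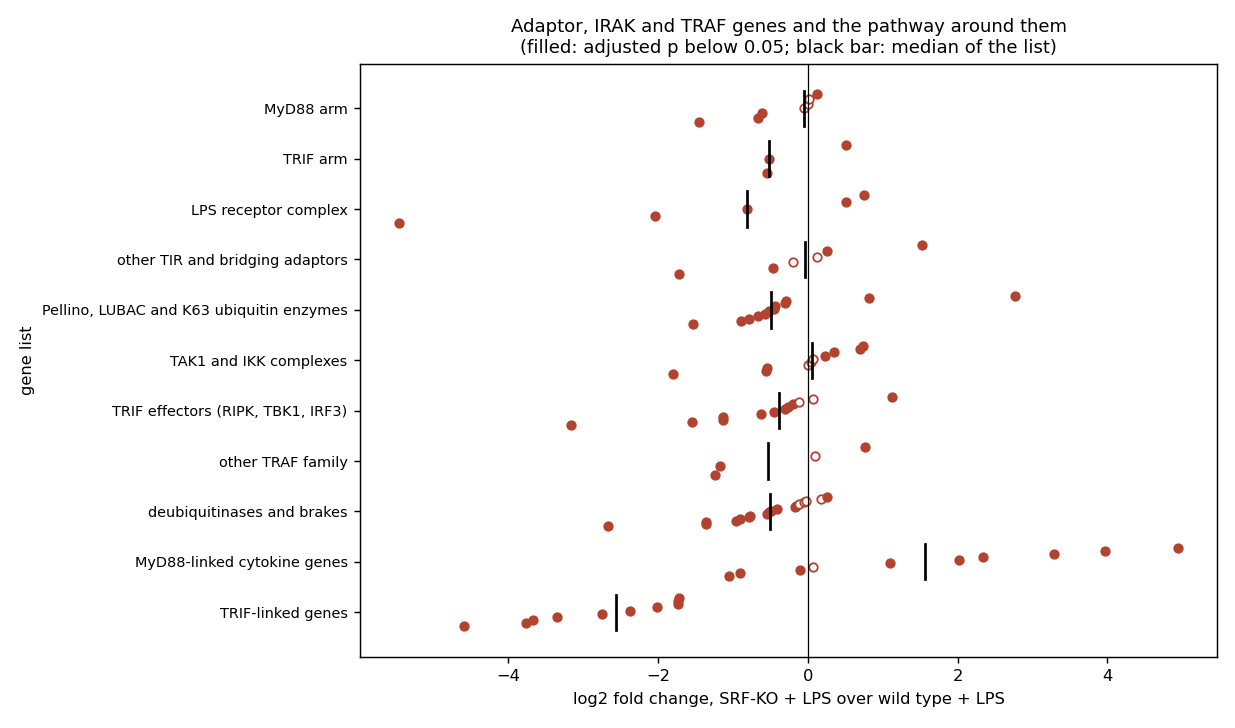
Log2 fold change of SRF-KO with LPS over LPS-treated wild type (x axis) for each tested gene of the MyD88 arm, the TRIF arm and 9 further pathway lists (y axis); filled points passed an adjusted p below 0.05 and black bars are list medians. The TRIF-linked genes all lie left of 0 with a median of -2.56, and the MyD88-linked genes have a median of 1.56.

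The genes nearest to 4 of the 10 in the plane of the log2 fold changes for LPS in wild type and for SRF-KO with LPS over LPS-treated wild type were taken from 8596 genes whose mean log2 CPM was 3 or more, over 9 libraries. Nearest to Myd88 were Zfp800 (distance 0.0152), Cept1 (0.0279) and Parp10 (0.0290). Nearest to Ticam1 were Hibadh (0.0206), Hp1bp3 (0.0292) and Slc12a4 (0.0335), and nearest to Traf6 were Rsbn1 (0.0109), Cct3 (0.0157) and Hsd17b12 (0.0240). Irak3 had no such close neighbours, the nearest being Spic (0.154), Rnd1 (0.288) and Abtb2 (0.314).

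Exons of 7 of the 10 genes overlap those of other genes, and Traf6, Ticam1 and Traf3 have no overlap. No source used here gives the strand setting of the counting, and reads in shared bases may have been counted for either gene or for neither. Myd88 shares 290 bases with Acaa1a on the opposite strand, whose log2 fold changes were 1.38 for LPS in wild type and -0.79 for SRF-KO with LPS over LPS-treated wild type, of the same sign as those of Myd88. Irak4 shares 395 bases with Twf1 on the opposite strand (0.78 and -0.51 in the same comparisons), and Irak3 shares 192 with Tmbim4 (1.38 and -0.62). Ticam2 shares 838 bases with Tmed7 on the same strand, which had 0.64 and 0.08, of which the 0.08 did not pass. The part of these reads in the values of the 10 genes was not tested.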

How the data were processed

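Per the file headers, the authors deposited raw read counts, whole numbers by Ensembl identifier with no normalization; 22214 of 22524 identifiers had a symbol. RNA libraries were prepared with stranded TruSeq reagents, per the labels. GRCm38 and the tools bcl2fastq 2.19, Trimmomatic, STAR 2.5.4b, featureCounts and edgeR appear in the submitters' processing notes without a role; the annotation and strand setting were not found there. Groups and replicate numbers came from the titles.

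In R 4.3.3, edgeR 4.0.16 kept 11560 genes with filterByExpr, scaled them by TMM and fitted all 9 libraries by group (glmQLFit and glmQLFTest, robust). The threshold was a p of 0.05 after Benjamini-Hochberg adjustment. TMM assumes that most genes do not change, so library totals were also used; DESeq2 1.42.0 was another alternative. Exon lengths and coordinates came from GENCODE mouse release 21. Steps were tested on simulated data in which few genes changed, evenly up and down, so the assumption behind TMM was not checked there. The members and lists were chosen with earlier results of these data known. Named genes were all 10 members and the 3 genes of smallest p per list and comparison. Also open to naming were any gene of the MyD88-linked and TRIF-linked lists and the nearest genes. Genes with overlapping exons, Ly96 and the cell type markers given singly were added after their values were seen. Replicates differed by more than sampling noise (chi-square per degree of freedom 1.75 to 3.95).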

Additional observations from a re-analysis of the deposited data

How the results depend on the processing

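Of 477 recomputed fold changes of the 10 genes, 466 were counted as unchanged, 7 no longer passed and 2 came to pass. Another 2 changed direction with a pass in either fit. These reversals came with library totals in place of TMM. They were Irak4 with LPS in wild type (-0.39) and Tirap in SRF-KO with LPS over wild type with LPS (0.30). The 466 kept their side of the threshold but include small values that changed sign and passed in neither fit. In SRF-KO with LPS over wild type with LPS, leaving out each library gave -0.0088 to 0.0237 for Irak3. For Traf6 it gave -0.0050 to 0.0328. Library totals moved the median of all genes by -0.55 for LPS in wild type, 0.36 for SRF-KO with LPS over wild type with LPS and -0.19 for SRF-KO with LPS over untreated wild type. Calls among all genes then split into 2428 higher and 7835 lower, 7059 higher and 2434 lower, and 3448 higher and 6042 lower in these comparisons, and those of the 10 genes between the LPS-treated groups into 5 higher and 5 lower. Without genes of the X and Y chromosomes, the mean fold change of the TRIF arm minus that of the MyD88 arm was -0.81, 0.27 and -0.54, against -0.45, 0.19 and -0.26, since Irak1 leaves the MyD88 arm. Leaving out each library in turn gave -0.50 to -0.42, 0.18 to 0.20 and -0.31 to -0.23, and 9 to 10, 6 to 7 and 10 of the 10 genes passing. With the longest transcript as length, the Irak3 share of IRAK reads was 63.3% in SRF-KO with LPS, 55.6% in wild type with LPS and 11% in untreated wild type. Same-numbered libraries deviated together with correlations from -0.0746 to 0.0971, against -0.110 to 0.111 for libraries of different numbers. Between the LPS-treated groups the same-numbered pairs had 0.0654, 0.0971 and 0.0180, and the other pairs -0.0725 to 0.00672. Whether the numbers pair the samples cannot be told from these values. A replicate block gave 9467, 8919 and 9231 passing genes against 9443, 8905 and 9192. The same 10, 7 and 10 of the 10 genes passed. With 3 libraries per group the ratios within libraries could not reach an adjusted p below 0.1.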
